A study of Mus musculus with 16 samples.

Results

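The genes described here are 10 named genes of the circadian clock and its output, Per1, Per2, Per3, Cry1, Cry2, Nr1d1, Nr1d2, Clock, Dbp and Noct, chosen by name out of 55414 genes in a table of read counts. All 10 had counts in the table and passed the filter on low counts, which kept 11809 genes for testing. The counts came from sorted Paneth cells of C57BL/6J mice, the crypt-base cells of the small intestine that secrete antimicrobial proteins. Each mouse was injected with PBS (vehicle) or DEX, then after 1 h with PBS or tumour necrosis factor (TNF), and was sampled 3 h later. DEX commonly stands for dexamethasone, a synthetic glucocorticoid, although no source used here writes the name in full. The 16 libraries formed 4 groups of 4: PBS+PBS (vehicle only), PBS+TNF (TNF after vehicle), DEX+PBS (DEX only) and DEX+TNF (TNF after DEX). All mice were of the same strain and received an injection at both times, so no group was without one. The methods of the study describe each sample as the sorted cells of an individual mouse, so the spread between the 4 libraries of a group is taken as that between mice. The age and sex of the mouse behind each library and the hour of the day at which it was injected and sampled are not given in the sources used here, so a difference in the hour of sampling and a difference in treatment cannot be told apart.

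The mammalian clock is a feedback loop of transcription. CLOCK (or its paralog NPAS2) and BMAL1 bind E-boxes and switch on the Per and Cry genes, whose proteins come back to block CLOCK and BMAL1, and the same factors drive Nr1d1 and Nr1d2, which encode the REV-ERB receptors that repress Bmal1. Dbp encodes an activator of D-box genes and Noct encodes nocturnin, a phosphatase, and both are outputs of the loop. Per1 is also a well known direct target of the glucocorticoid receptor, and intestinal epithelium keeps a clock of its own that glucocorticoids and feeding can shift.

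The promoters of the 4 genes that passed the test after TNF are shown first, as the 250 bases before the annotated start of the canonical transcript, read 5′ to 3′ on the strand of the gene from the GRCm39 genome. Capitals mark matches, on either strand, to any of 7 motifs: the E-box CACGTG, the variant E-box CACGTT, the D-box TTATGTAA, the REV-ERB/ROR element AGGTCA, the glucocorticoid receptor site ACANNNTGT, the cAMP response element TGACGTCA and the NF-kB consensus. The windows lie at chr3:51147377-51147626, plus strand (Noct), chr10:85020950-85021199, minus strand (Cry1), chr11:98666160-98666409, minus strand (Nr1d1) and chr7:45354262-45354511, plus strand (Dbp). The Noct and Cry1 windows lie inside the annotated gene, whose outermost start is at 51128616 for Noct and at 85021252 for Cry1. The sequence before those outermost starts was not scanned.
Noct: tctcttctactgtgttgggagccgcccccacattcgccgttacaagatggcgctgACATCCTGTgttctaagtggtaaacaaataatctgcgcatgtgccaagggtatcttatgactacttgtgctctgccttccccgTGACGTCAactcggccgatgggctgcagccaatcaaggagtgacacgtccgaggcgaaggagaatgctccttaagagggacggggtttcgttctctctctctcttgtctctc
Cry1: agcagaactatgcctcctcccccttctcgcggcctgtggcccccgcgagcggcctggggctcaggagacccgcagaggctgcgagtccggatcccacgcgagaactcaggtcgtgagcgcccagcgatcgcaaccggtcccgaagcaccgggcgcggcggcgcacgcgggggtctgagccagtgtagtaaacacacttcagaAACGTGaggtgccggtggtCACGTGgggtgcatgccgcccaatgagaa
Nr1d1: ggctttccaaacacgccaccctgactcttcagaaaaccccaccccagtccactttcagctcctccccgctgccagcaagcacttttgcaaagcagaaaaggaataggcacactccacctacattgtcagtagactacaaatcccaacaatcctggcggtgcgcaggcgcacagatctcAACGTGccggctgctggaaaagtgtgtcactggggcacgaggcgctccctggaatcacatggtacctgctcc
Dbp: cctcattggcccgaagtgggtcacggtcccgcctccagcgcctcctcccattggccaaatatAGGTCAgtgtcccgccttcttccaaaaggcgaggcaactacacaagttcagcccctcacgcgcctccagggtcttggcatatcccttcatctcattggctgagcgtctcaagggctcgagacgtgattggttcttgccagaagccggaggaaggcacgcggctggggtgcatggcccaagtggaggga
Noct held a glucocorticoid receptor site from -195 to -187 and a cAMP response element from -112 to -105, counted from the start site. Cry1 held an E-box from -29 to -24 beside a variant E-box from -48 to -43, Nr1d1 a variant E-box from -72 to -67, and Dbp a REV-ERB/ROR element from -188 to -183. None of these 4 windows matched the NF-kB consensus, which says only that those letters are not in this window. In windows that also took in the first 50 transcribed bases, the E-box was found in 2 of the 10 genes (Per1 and Cry1) and in 7.81% of all 21770 promoters, and the variant E-box in 4 of the 10 (Per2, Cry1, Cry2 and Nr1d1) and in 4.99% of all. The D-box was found in 2 of the 10 (Per2 and Per3, the latter with 2 matches) and in 0.937% of all, and the REV-ERB/ROR element in 2 of the 10 (Nr1d2 and Dbp) and in 15.1%. The glucocorticoid receptor site was found in Noct and in 5.95% of all promoters, the cAMP response element in Noct and in 2.44%, and the NF-kB consensus in Clock and in 4.87%. A match is a description of the sequence and was not tested for binding.

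Levels are given as CPM, read counts relative to a library size that was scaled by the TMM (trimmed mean of M-values) method and set to the same round total. Library totals ran from 7286307 to 15832111 counts and scaling factors from 0.418 to 1.50. The summed level of 8 Paneth cell marker genes lay between 279804 CPM, in DEX+TNF 4, and 1443000 CPM, in PBS+TNF 1, and was 1212240 CPM in PBS+PBS 4. The latter libraries had the lowest scaling factors, which is how a scaled sum can pass the round total. The 6 goblet cell markers summed to between 6795 and 37105 CPM and the 7 immune markers to between 37.6 and 278 CPM. In DEX+TNF 4 the 4 tuft cell markers summed to 423 CPM against 0.162 to 119 in the other libraries, the 8 enterocyte markers to 412 against 17.3 to 280, and the 4 stem cell markers to 1219 against 252 to 826. The 5 stromal markers summed to at most 1.05 CPM and the 4 red blood cell markers to at most 0.648 CPM in any library. The TNF checks went with the labels except in DEX+TNF 3 and 4. Nfkbia, the gene of the NF-kB inhibitor that NF-kB itself induces, was at 277, 337, 311 and 308 CPM in PBS+TNF and at 330 and 382 CPM in DEX+TNF 1 and 2, but at 28.3 and 41.0 CPM in the libraries labelled DEX+TNF 3 and 4, against 19.5 to 27.3 CPM in DEX+PBS. Icam1 was at 116 and 114 CPM in DEX+TNF 1 and 2 and at 0.102 and 1.40 CPM in the libraries labelled 3 and 4, and Tnfaip3 at 115 and 110 CPM against 2.25 and 7.38 CPM. Sgk1, a glucocorticoid target, was high in all 8 DEX libraries (17.6 to 115 CPM, against 1.11 to 7.94 CPM in the 8 others). Nr3c1, the glucocorticoid receptor gene, was at 15.6 ± 4.83 CPM in PBS+PBS, 10.2 ± 0.893 in PBS+TNF, 11.5 ± 1.90 in DEX+PBS and 14.4 ± 3.61 in DEX+TNF (SD, n = 4). Tnfrsf1a, a TNF receptor gene, was at 68.8 ± 21.4, 92.7 ± 25.8, 78.1 ± 8.24 and 87.6 ± 38.5 CPM in the same order, so both receptors were expressed in all groups. Fold changes of the 10 genes that rest on DEX+TNF and are read below are therefore given with and without the libraries labelled 3 and 4.

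In PBS+PBS the 10 genes fell into 3 levels when counts were set per length, as CPM per kilobase of annotated exon. By this measure the REV-ERB genes were highest, with 5.01 ± 1.97 (SD, n = 4) for Nr1d1 and 4.89 ± 2.39 (SD, n = 4) for Nr1d2. Per1 (1.71 ± 0.539), Cry1 (1.67 ± 0.198), Clock (1.64 ± 0.537) and Noct (1.58 ± 0.207) followed at nearly the same level per kilobase, and these neighbours did not differ beyond their spread. The lowest were Per2 (0.458 ± 0.192), Per3 (0.337 ± 0.154), Dbp (0.316 ± 0.322) and Cry2 (0.224 ± 0.0863), which overlapped each other. These levels depend on the length used, which was 3242 bases for Nr1d1, 11662 for Noct and 17251 for Clock. By CPM without length, the PBS+PBS means of Clock and Noct were above that of Nr1d1, with overlapping values. The order therefore holds for this length only, and the length of the transcripts present was not tested. Depth set how well each was measured: over all 16 libraries Nr1d2 had 7522 counts, Clock 5968, Per1 4304 and Nr1d1 3187, but Cry2 had 457 and Dbp 126.

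**Figure D1:**
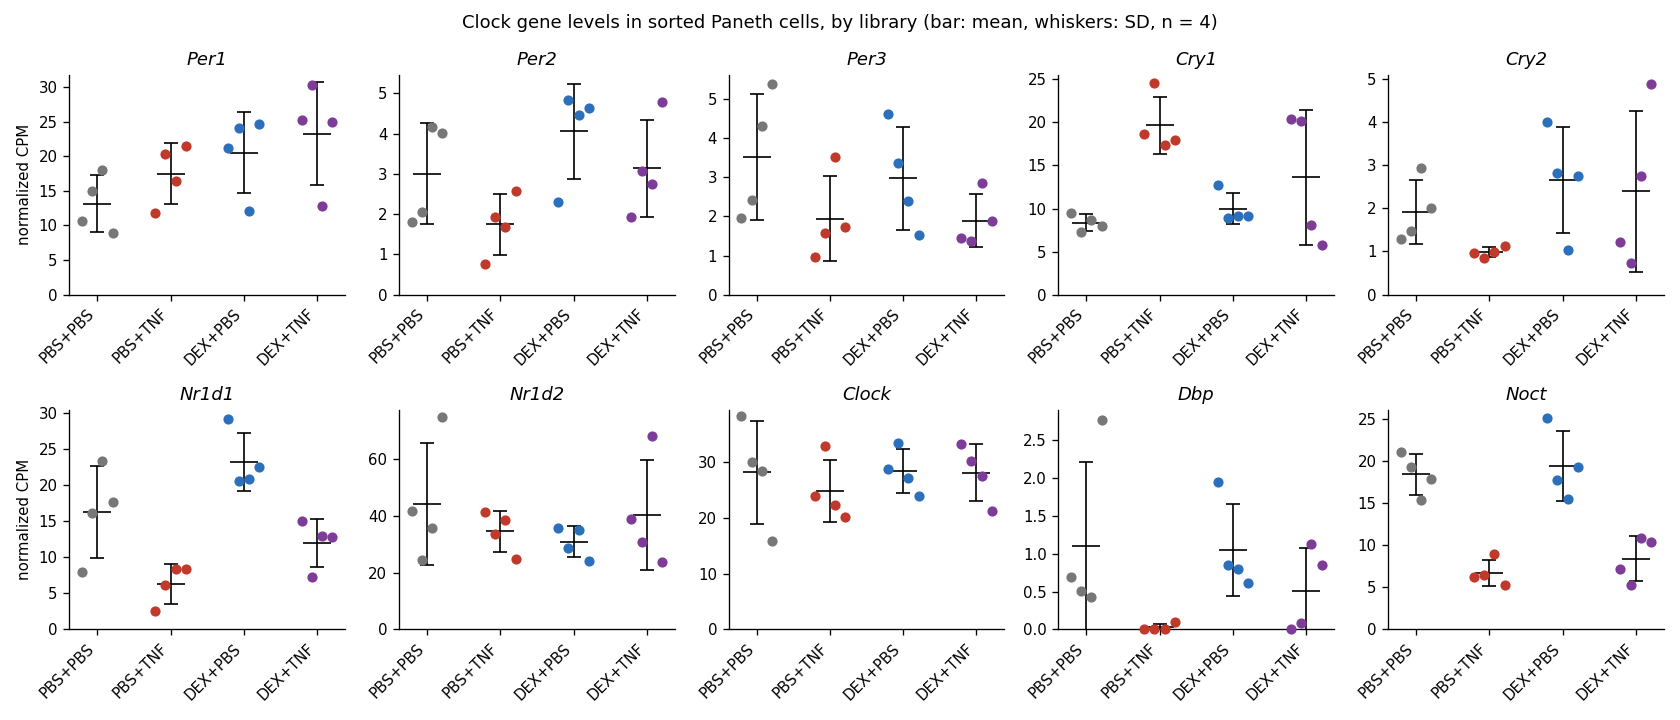
Level of each of the 10 clock genes in every library, in TMM-normalized CPM (vertical axis from 0, a separate scale per gene), by injection group; points are libraries, the bar is the group mean and whiskers are the SD (n = 4; for Dbp they are cut off at 0). All 4 Noct values in PBS+TNF (5.30 to 8.93 CPM) lie under all 4 in PBS+PBS (15.4 to 21.1 CPM), and Cry1 in DEX+TNF splits into 20.4 and 20.2 CPM against 8.06 and 5.73 CPM.

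The first question was what TNF did to the clock genes in mice that had received PBS. In PBS+TNF versus PBS+PBS, 4 of the 10 genes passed the test (edgeR, Benjamini-Hochberg adjusted p under 0.05 over all 11809 genes), Noct, Nr1d1 and Dbp being lower and Cry1 higher. Of all tested genes 12.5% passed, 7.15% as higher and 5.35% as lower. The median log2 fold change was -0.77 over the 10 genes and -0.03 over all genes. Changes are seen in bulk RNA, in which fewer cells of a type and less RNA per cell cannot be told apart.

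Noct (ENSMUSG00000023087, chromosome 3, 51128616 to 51159065, plus strand) was the clearest of them. It read 21.1, 19.3, 15.4 and 17.8 CPM in PBS+PBS and 6.16, 6.51, 8.93 and 5.30 CPM in PBS+TNF. By scaled CPM the groups did not overlap, and the highest TNF library was well under the lowest control. By plain CPM, which leaves out the scaling factors, PBS+PBS 4 (8.97) lay under PBS+TNF 3 (9.61). The means were 18.4 ± 2.42 CPM and 6.73 ± 1.55 CPM (SD, n = 4). On the log2 scale the change was -1.45 (SE 0.25, adjusted p = 0.0020, edgeR). Noct stayed past the threshold in all 26 alternative settings, with log2 fold changes from -1.62 to -1.34.

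Cry1 (ENSMUSG00000020038, chromosome 10, 84967560 to 85021252, minus strand), the repressor of CLOCK and BMAL1 whose promoter above holds both kinds of E-box, moved the other way. It read 9.51, 7.21, 8.65 and 7.91 CPM in PBS+PBS and 18.7, 24.6, 17.4 and 18.0 CPM in PBS+TNF. Every TNF library was above every control library by scaled CPM. By plain CPM, PBS+TNF 1 (7.80) lay under PBS+PBS 1, 2 and 3 (7.94 to 11.3). The log2 fold change was 1.24 (SE 0.33, adjusted p = 0.019, edgeR). Without PBS+PBS 2 it was 1.18 (adjusted p = 0.0607) and without PBS+TNF 2 it was 1.12 (adjusted p = 0.0590), which ended the call and hardly moved the value.

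Nr1d1 (ENSMUSG00000020889, chromosome 11, 98658752 to 98666188, minus strand) encodes REV-ERB alpha, which represses Bmal1 and Nfil3. It read 7.88, 16.2, 23.4 and 17.6 CPM in PBS+PBS and 2.50, 6.15, 8.30 and 8.42 CPM in PBS+TNF. By scaled CPM PBS+PBS 1 lay within the range of the TNF libraries, so the groups overlapped, and the other controls were all higher. By plain CPM, PBS+PBS 4 (8.84) also lay under PBS+TNF 3 (8.93) and PBS+TNF 4 (12.1). The log2 fold change was -1.32 (SE 0.35, adjusted p = 0.019, edgeR). Without PBS+PBS 3 it was -1.09 (adjusted p = 0.0666) and without PBS+TNF 2 it was -1.29 (adjusted p = 0.0502). Of the 3242 annotated exon bases of Nr1d1, 1694 overlap exons of Thra on the opposite strand, and whether the counting used strand is not given in the sources used here. Thra, the thyroid hormone receptor alpha gene, had a log2 fold change of -0.87 (SE 0.40, adjusted p = 0.178, edgeR), and its part in the Nr1d1 counts was not tested.

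Dbp (ENSMUSG00000059824, chromosome 7, 45354512 to 45359627, plus strand) was scarce, so its counts are given themselves. They were 8, 8, 8 and 22 in PBS+PBS and 0, 0, 0 and 2 in PBS+TNF. The groups did not overlap, and 3 of the 4 TNF libraries held no Dbp count. Set against the scaled library sizes, the summed 46 counts of PBS+PBS and 2 counts of PBS+TNF gave a ratio of 23.9 (exact 95% interval 6.26 to 203, which covers counting error only). The fitted log2 fold change was -4.62 (SE 1.24, adjusted p = 0.021, edgeR) and depends on how counts of 0 are treated. It was -3.70 (adjusted p = 0.0556) without PBS+PBS 4, -4.24 (adjusted p = 0.0662) without PBS+TNF 2 and -4.29 (adjusted p = 0.0649) without PBS+TNF 3, so the call was lost each time. PBS+PBS 4 held 22 of the 46 control counts, and without it the ratio was 14.6 (exact 95% interval 3.63 to 128). Dbp shares 539 of its 3470 exon bases with Sphk2, a sphingosine kinase gene on the opposite strand. Sphk2 was lower in PBS+TNF as well, at 29.4, 48.5, 38.8 and 28.0 CPM in PBS+PBS and 4.62, 10.9, 10.8 and 16.9 CPM in PBS+TNF (log2 fold change -1.72, SE 0.37, adjusted p = 0.0066, edgeR), and its part in the Dbp counts was not tested. Overlaps with opposite-strand exons that took a smaller share of the gene's exon bases were present for Clock (2047 of 17251 bases, with Tmem165, whose log2 fold change was 0.13) and Noct (641 of 11662 bases, with Gm65789, a long non-coding RNA whose counts were not analysed here).

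The 6 other genes did not pass the test, with log2 fold changes from -0.97 to 0.41 and a lowest adjusted p of 0.275 (edgeR). Among the Per genes, the repressors that partner the CRY proteins, Per2 (ENSMUSG00000055866, chromosome 1, 91343700 to 91387069, minus strand) read 1.80, 2.04, 4.16 and 4.02 CPM in PBS+PBS and 0.771, 1.93, 1.69 and 2.57 CPM in PBS+TNF. Per3 (ENSMUSG00000028957, chromosome 4, 151081373 to 151129140, minus strand) read 1.97, 2.43, 4.32 and 5.40 CPM in PBS+PBS and 0.963, 1.57, 3.52 and 1.73 CPM in PBS+TNF. In both genes the groups overlapped, with log2 fold changes of -0.73 (SE 0.41) for Per2 and -0.82 (SE 0.45) for Per3. Per1 read 10.6, 15.0, 18.0 and 8.92 CPM in PBS+PBS and 11.8, 20.3, 16.4 and 21.4 CPM in PBS+TNF, which also overlapped (0.41, SE 0.30). Cry2 (ENSMUSG00000068742, chromosome 2, 92233894 to 92264474, minus strand), the paralog of Cry1, read 1.29, 1.47, 2.94 and 2.01 CPM in PBS+PBS and 0.963, 0.844, 0.984 and 1.14 CPM in PBS+TNF. By scaled CPM every Cry2 value after TNF was under every control value. At 5 to 23 counts a library after TNF, the log2 fold change of -0.97 (SE 0.54) yet had an adjusted p of 0.282 (edgeR). Nr1d2 (ENSMUSG00000021775, chromosome 14, 4230545 to 4266624, plus strand), the gene of REV-ERB beta, read 41.8, 24.4, 35.8 and 74.9 CPM in PBS+PBS and 41.4, 33.5, 38.7 and 24.9 CPM in PBS+TNF, with a log2 fold change of -0.35 (SE 0.34) that rested on PBS+PBS 4 and was 0.000135 without it. Clock (ENSMUSG00000029238, chromosome 5, 76342860 to 76452846, minus strand), the activator, read 38.4, 30.1, 28.5 and 16.0 CPM in PBS+PBS and 23.9, 33.0, 22.4 and 20.3 CPM in PBS+TNF (-0.18, SE 0.25), and its groups overlapped widely.

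**Figure D2:**
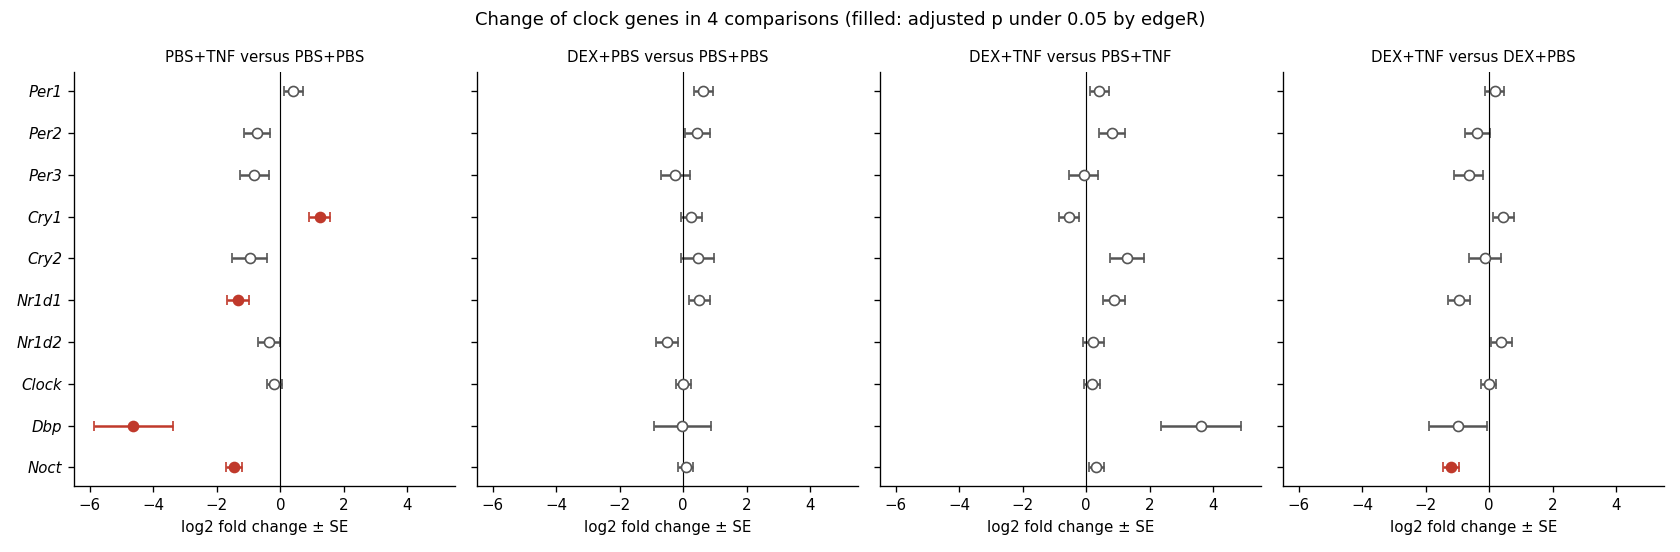
Log2 fold change (horizontal axis, whiskers are the SE) of the 10 clock genes in the 4 comparisons that differ in a single injection, fitted with edgeR over 16 libraries; filled red points have an adjusted p under 0.05. Noct, Nr1d1, Dbp and Cry1 are filled in PBS+TNF versus PBS+PBS, Noct alone in DEX+TNF versus DEX+PBS, and no gene is filled in the 2 comparisons of DEX with PBS.

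The next question was whether TNF gave the same changes after DEX. In DEX+TNF versus DEX+PBS, Noct alone of the 10 genes passed (edgeR), where 0.339% of all genes did. These libraries are other ones than those of the comparison above. Noct read 25.1, 17.7, 15.5 and 19.3 CPM in DEX+PBS and 7.18, 5.26, 10.8 and 10.4 CPM in DEX+TNF. The groups did not overlap by scaled CPM, and the higher pair of DEX+TNF values came from the libraries labelled 3 and 4. The log2 fold change was -1.20 (SE 0.25, adjusted p = 0.0488, edgeR), close to the threshold, and the call held in 6 of 26 alternative settings, with adjusted p from 0.00115 to 0.476. Nr1d1 read 29.1, 20.5, 20.8 and 22.5 CPM in DEX+PBS and 15.0, 7.20, 13.0 and 12.8 CPM in DEX+TNF. Every DEX+TNF library was lower by scaled CPM, but with a log2 fold change of -0.95 (SE 0.34) the adjusted p was 0.279 (edgeR).

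Cry1 in DEX+TNF followed the split of the TNF checks. It read 12.7, 8.92, 9.16 and 9.13 CPM in DEX+PBS and 20.4, 20.2, 8.06 and 5.73 CPM in DEX+TNF. Libraries 1 and 2 were at the level of PBS+TNF, and by scaled CPM the libraries labelled 3 and 4 were under all 4 DEX+PBS libraries. The log2 fold change over all 4 was 0.45 (SE 0.32, adjusted p = 0.713, edgeR). Without the libraries labelled 3 and 4 it was 1.03 (SE 0.22, adjusted p = 0.00626), Noct was at -1.64 (SE 0.28, adjusted p = 0.00115) and Nr1d1 at -1.06 (SE 0.44, adjusted p = 0.140). These libraries were left out because of measured TNF target levels, so those values describe the remaining libraries and are no test of the treatment. Noct and Nr1d1 did not follow Nfkbia in the same way. In the libraries labelled 3 and 4 Noct was at 10.8 and 10.4 CPM and Nr1d1 at 13.0 and 12.8 CPM, by scaled CPM under every DEX+PBS library. Dbp had 16, 14, 7 and 12 counts in DEX+PBS and 0, 1, 11 and 17 counts in DEX+TNF, the higher counts again in the libraries labelled 3 and 4. Sphk2, which overlaps Dbp on the opposite strand, split likewise, at 12.4, 11.9, 25.1 and 32.8 CPM in DEX+TNF. Its part in these Dbp counts was not tested. DEX+TNF 4 is also the library with high tuft, enterocyte and stem cell markers, and the part of those cells in its clock gene levels was not tested.

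**Figure D3:**
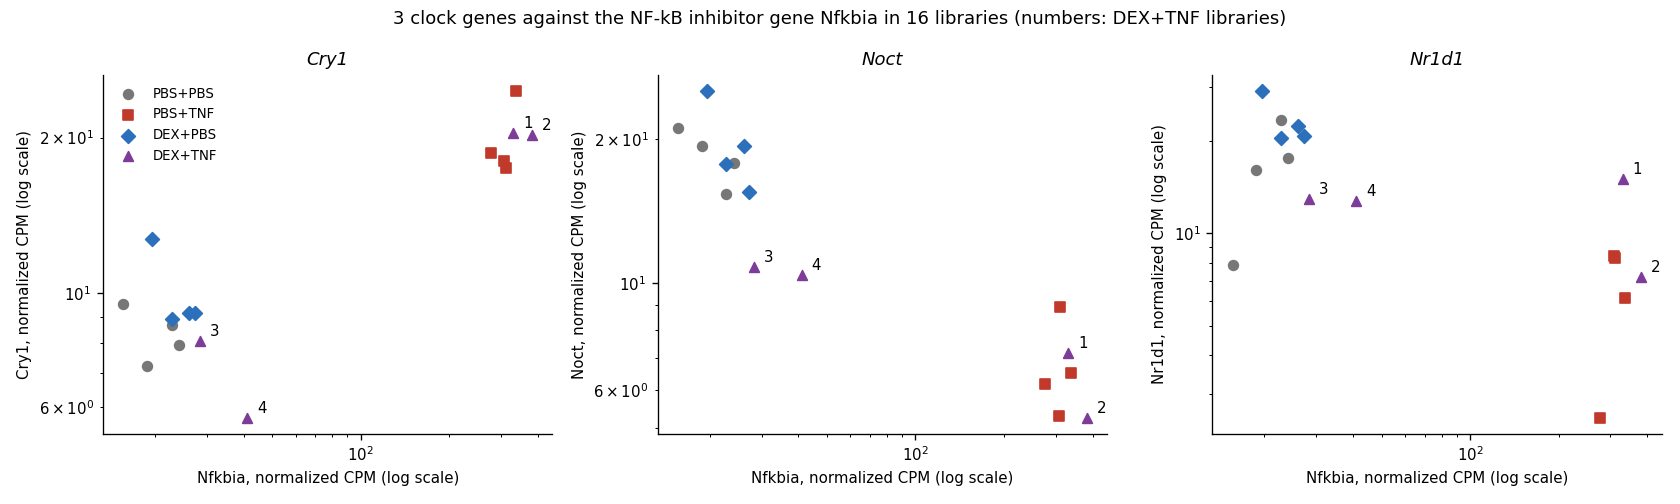
Level of Cry1, Noct and Nr1d1 (vertical axes) against Nfkbia (horizontal axis), both in TMM-normalized CPM on log scales, in 16 libraries; symbols are groups and the numbers name the DEX+TNF libraries. For Cry1 the libraries labelled DEX+TNF 3 and 4 (8.06 and 5.73 CPM) sit with the PBS second injection, whereas for Noct (10.8 and 10.4 CPM) they lie between the groups.

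Whether the TNF effect differed between DEX and PBS mice was tested as an interaction, the TNF effect after DEX minus that after PBS. None of the 10 genes passed (edgeR and DESeq2), 1 of them (Dbp) had an unadjusted p under 0.05, and 0% of all genes passed by edgeR. Over all genes 642 had an unadjusted p under 0.05 and DESeq2 called 8. The Dbp interaction was 3.63 (SE 1.54, adjusted p = 0.884, edgeR) and was 0.23 without the libraries labelled DEX+TNF 3 and 4. The interaction was -0.79 (SE 0.46) for Cry1, 0.25 (SE 0.35) for Noct and 0.37 (SE 0.48) for Nr1d1, all with adjusted p over the threshold. For Cry1 it depended on which DEX+TNF libraries entered: it was -0.21 (SE 0.30) without the libraries labelled 3 and 4, and -1.79 (SE 0.34, adjusted p = 0.00794, edgeR) without libraries 1 and 2. For Noct and Nr1d1 it was -0.19 (SE 0.34) and 0.25 (SE 0.54) without the libraries labelled 3 and 4. Either pair was left out by its TNF target levels, so the values without a pair are no test of the treatment. Over all 16 libraries no difference in the TNF effect passed the test for these genes. For Noct and Nr1d1 the SE was larger than the interaction value, and for Dbp and Cry1 it was smaller.

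Averaged over both first injections, the TNF effect passed the test for the same 4 genes, where 15% of all genes passed, 9.19% as higher and 5.77% as lower. It was -1.33 (SE 0.18, adjusted p = 0.00018, edgeR) for Noct, -1.14 (SE 0.24, adjusted p = 0.0042) for Nr1d1, 0.84 (SE 0.23, adjusted p = 0.019) for Cry1 and -2.81 (SE 0.77, adjusted p = 0.020) for Dbp. The Cry1 average was 0.71 (adjusted p = 0.0523) without DEX+TNF 1 and 0.72 (adjusted p = 0.0510) without DEX+TNF 2. This average uses the libraries of both comparisons above and is not independent of them. Without the libraries labelled DEX+TNF 3 and 4 the average was -1.54 (SE 0.18) for Noct, -1.19 (SE 0.28) for Nr1d1, 1.14 (SE 0.15) for Cry1 and -4.49 (SE 0.87) for Dbp. Cry2 was then at -1.21 (SE 0.35, adjusted p = 0.018, edgeR), against -0.55 (SE 0.37, adjusted p = 0.371, edgeR) over all 16 libraries. As above, those libraries were left out by their TNF target levels, so these values are no test of the treatment.

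The remaining question was what DEX did, since Per1 and other clock genes are known glucocorticoid targets in many tissues. In DEX+PBS versus PBS+PBS none of the 10 genes passed (edgeR and DESeq2) and 1 had an unadjusted p under 0.05. Of all genes 0.00847% passed, which was Sgk1 alone. The glucocorticoid target Fkbp5 did not pass here, at 2.27 (SE 0.44, adjusted p = 0.282, edgeR). Its means were 12.9 ± 7.06 CPM in PBS+PBS and 62.8 ± 13.2 CPM in DEX+PBS (SD, n = 4). Tsc22d3, at 0.88 (SE 0.37), did not pass either, so a gene that fails this test may still respond to DEX. Per1 (ENSMUSG00000020893, chromosome 11, 68986035 to 69002300, plus strand) read 21.1, 24.1, 12.0 and 24.7 CPM in DEX+PBS, against 10.6, 15.0, 18.0 and 8.92 CPM in PBS+PBS. Of the DEX+PBS libraries, 3 were above all 4 controls, and DEX+PBS 3 lay among them. The log2 fold change was 0.64 (SE 0.30, adjusted p = 1, edgeR). Nr1d1 was at 0.51 (SE 0.34), Per2 at 0.44 (SE 0.40), Cry2 at 0.46 (SE 0.52) and Cry1 at 0.26 (SE 0.33). Noct (0.07, SE 0.24), Clock (0.01, SE 0.24) and Dbp (-0.03, SE 0.90) were near 0, and Per3 (-0.25, SE 0.45) and Nr1d2 (-0.51, SE 0.34) were under it. Per3 read 4.61, 3.38, 2.41 and 1.53 CPM in DEX+PBS and 1.45, 1.37, 2.86 and 1.89 CPM in DEX+TNF. Nr1d2 read 35.9, 28.8, 35.2 and 24.1 CPM in DEX+PBS and 38.8, 31.0, 68.2 and 23.7 CPM in DEX+TNF, with DEX+TNF 3 well above the rest. Clock read 28.9, 33.5, 27.3 and 24.0 CPM in DEX+PBS and 33.4, 30.2, 27.6 and 21.3 CPM in DEX+TNF, and lay within the range of the PBS+PBS libraries throughout. Cry2 read 4.01, 2.83, 1.03 and 2.75 CPM in DEX+PBS, a range that took in all 4 PBS+PBS values.

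In DEX+TNF versus PBS+TNF none of the 10 genes passed either (edgeR and DESeq2), where 0.339% of all genes did, and 3 had an unadjusted p under 0.05. These were Nr1d1 at 0.88 (SE 0.35, adjusted p = 0.316, edgeR), Cry2 at 1.29 (SE 0.54, adjusted p = 0.346) and Dbp at 3.60 (SE 1.26, adjusted p = 0.236). Cry2 read 1.21, 0.728, 2.76 and 4.89 CPM in DEX+TNF, and Dbp had 0, 1, 11 and 17 counts, so both differences came from the libraries labelled 3 and 4. Without those libraries Cry2 was at -0.022 (SE 0.55) and Dbp at 0.21 (SE 1.80). Nr1d1 was at 0.76 (SE 0.42) without them and so depended less on them. Per1 read 25.2, 30.2, 12.8 and 24.9 CPM in DEX+TNF, 3 of 4 libraries being above every PBS+TNF library by scaled CPM (0.41, SE 0.30, and 0.66, SE 0.32, without the libraries labelled 3 and 4). By plain CPM, DEX+TNF 1 (27.1) and DEX+TNF 2 (30.85) lay under PBS+TNF 4 (30.94).

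Averaged over both second injections, the DEX effect passed for none of the 10 genes (edgeR and DESeq2), where 0.186% of all genes passed. Of the 10, 5 had an unadjusted p under 0.05, against 7.96% of all genes, and all 5 were above 0: Nr1d1 at 0.70 (SE 0.24, adjusted p = 0.432, edgeR), Per1 at 0.52 (SE 0.21, adjusted p = 0.528), Per2 at 0.62 (SE 0.29, adjusted p = 0.601), Cry2 at 0.87 (SE 0.38, adjusted p = 0.569) and Dbp at 1.79 (SE 0.77, adjusted p = 0.569). Per2 read 2.31, 4.82, 4.47 and 4.64 CPM in DEX+PBS and 1.94, 3.07, 2.76 and 4.79 CPM in DEX+TNF. These ranges overlapped those of both PBS groups. Without the libraries labelled DEX+TNF 3 and 4, the average was 0.092 (SE 0.93) for Dbp, 0.22 (SE 0.34) for Cry2 and 0.45 (SE 0.31) for Per2, so the Dbp and Cry2 values rested on those libraries. Nr1d1 was at 0.64 (SE 0.27) and Per1 at 0.65 (SE 0.21) without them, and these were the 2 of the 10 that then had an unadjusted p under 0.05. For comparison, Sgk1 passed at 3.41 (SE 0.35, adjusted p = 0.00020, edgeR) and Fkbp5, another glucocorticoid target, at 1.96 (SE 0.31, adjusted p = 0.014), as did Tsc22d3 at 1.44 (SE 0.27, adjusted p = 0.038).

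Of 25 further clock genes taken from a list of loop partners, kinases, ubiquitin ligases and output factors, 21 could be tested, and Rorb, Bhlhe41, Ciart and Hlf were too low (Ciart, a repressor of CLOCK and BMAL1, had 1 to 22 counts a library). In PBS+TNF versus PBS+PBS 2 of the 21 passed, both higher (9.52%, against 12.5% of all genes). Nfil3, the repressor that competes with DBP at D-boxes, read 1.03, 5.17, 2.30 and 1.13 CPM in PBS+PBS and 11.2, 12.5, 9.28 and 8.17 CPM in PBS+TNF. By scaled CPM its groups did not overlap, and the log2 fold change was 2.05 (SE 0.48, adjusted p = 0.010, edgeR). Without the scaling factors, PBS+TNF 1 lay under PBS+PBS 2. Fbxw11, a subunit of the ubiquitin ligase that recognises phosphorylated PER proteins, read 33.2, 30.9, 29.3 and 23.4 CPM in PBS+PBS and 68.6, 70.7, 54.8 and 56.6 CPM in PBS+TNF. By scaled CPM it rose without overlap, with a log2 fold change of 1.10 (SE 0.25, adjusted p = 0.0084, edgeR). Without the scaling factors, PBS+TNF 1 lay under PBS+PBS 1, 2 and 3. In DEX+TNF Fbxw11 split as Cry1 did, with 59.4 and 57.6 CPM in libraries 1 and 2 and 28.0 and 29.4 CPM in the libraries labelled 3 and 4. Nfil3 also was higher in libraries 1 and 2 (10.002 and 11.9 CPM) than in the libraries labelled 3 and 4 (3.06 and 7.58 CPM), although library 4 was above all 4 DEX+PBS libraries (1.70 to 5.05 CPM).

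Averaged over both first injections, 3 of the 21 passed for TNF, all higher: Nfil3 at 1.63 (SE 0.34, adjusted p = 0.0034, edgeR), Fbxw11 at 0.79 (SE 0.17, adjusted p = 0.0052) and Csnk1e, a kinase of PER proteins, at 0.56 (SE 0.18, adjusted p = 0.045). The Csnk1e call was lost in 16 of 25 alternative settings. With DESeq2, 5 of the further clock genes passed for this average. None of the 21 passed (edgeR) for DEX alone (DEX+PBS versus PBS+PBS), between the groups given TNF, between the groups given DEX or for the DEX average, where 1 had an unadjusted p under 0.05 in each, nor in the interaction, where 0 had. The core partners of Clock did not pass after TNF: Bmal1 was at 0.39 (SE 0.50) and Npas2 at 0.66 (SE 0.39) in PBS+TNF versus PBS+PBS. Tef, a D-box activator related to Dbp, was at -1.06 (SE 0.50, adjusted p = 0.189, edgeR), and Bhlhe40, a repressor at E-boxes, at 0.30 (SE 0.22).

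**Figure D4:**
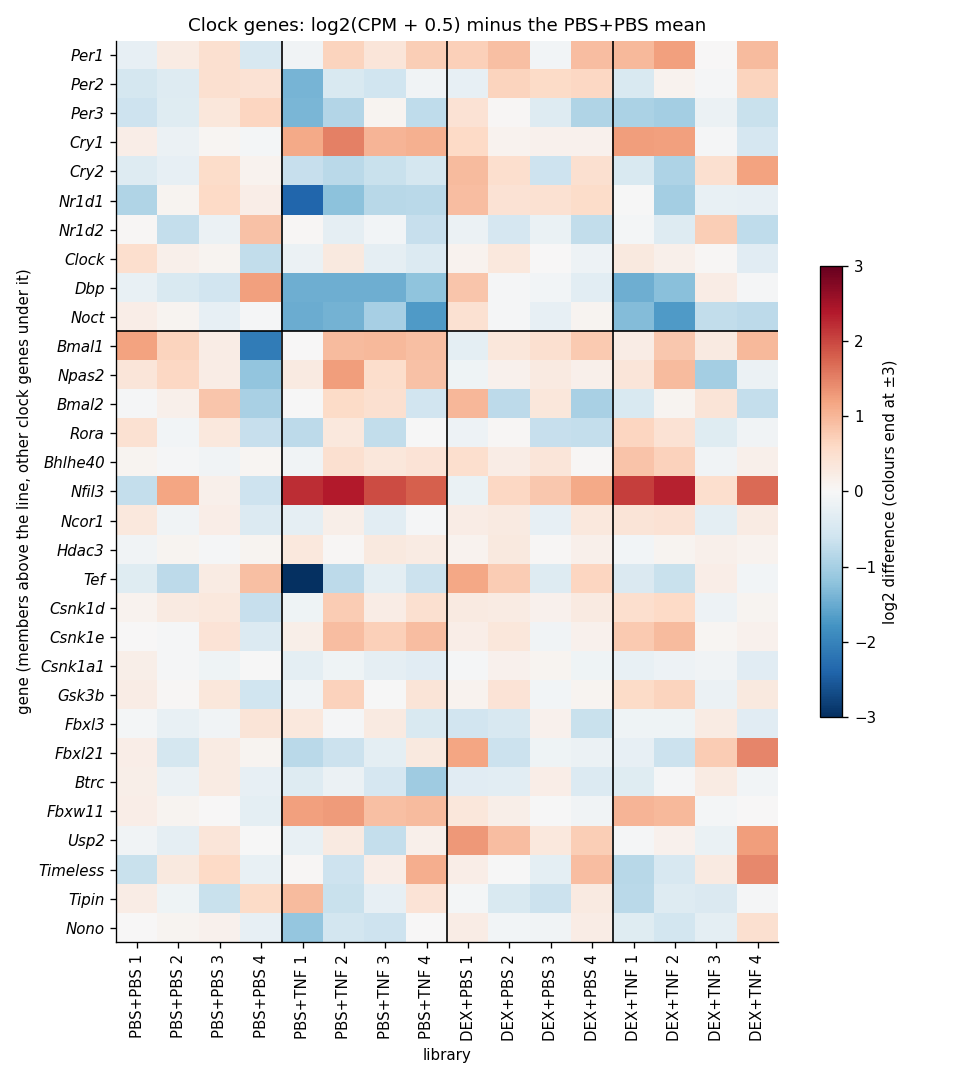
Log2(CPM + 0.5) of the 10 clock genes (above the horizontal line) and of 21 other tested clock genes (under it) in 16 libraries, minus the PBS+PBS mean of the gene; red is higher, blue is lower, and colours end at ±3. Nfil3, Cry1 and Fbxw11 are red in all 4 PBS+TNF libraries while Noct, Nr1d1 and Dbp are blue, and the column of PBS+PBS 4 differs from the other controls at Bmal1 and Dbp.

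Genes that peak at opposite hours can be set against each other within a library. In the textbook clock, Nr1d1, Nr1d2, Dbp, Tef, Ciart and Per3 peak when Bmal1, Npas2 and Clock are low. The mean log2 CPM of the former minus that of the latter was -2.35, -2.04, -1.11 and 1.39 in PBS+PBS and -3.04, -3.10, -2.22 and -2.78 in PBS+TNF. PBS+PBS 4 stood apart from its group and was the only one of the 16 libraries above 0. By scaled CPM it had the highest Dbp (2.76 CPM), Per3 (5.40 CPM) and Nr1d2 (74.9 CPM) of any library, and the lowest Clock (16.0 CPM) and Bmal1 (0.377 CPM, from 3 counts). By plain CPM, without scaling factors, Dbp was at 1.39 (2.20 in DEX+PBS 1) and Per3 at 2.72 (5.67 in PBS+PBS 3). Nr1d2 was at 37.6 by plain CPM (51.5 in DEX+TNF 3), so the high ranks of these genes rested on the scaling. Clock (8.02) and Bmal1 (0.189) were lowest by plain CPM too. Its scaling factor of 0.503 was the second lowest of the 16. The 8 enterocyte markers summed to 280 CPM in it, the second highest, and the part of those cells in these levels was not tested. The difference was -0.46, -1.31, -1.41 and -1.61 in DEX+PBS and -2.13, -2.69, -0.90 and -1.70 in DEX+TNF. Of the PBS+TNF values, 3 were under every PBS+PBS value, and PBS+TNF 3 lay above PBS+PBS 1. No test was made of this measure, since its genes are in part those that passed above.

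**Figure D5:**
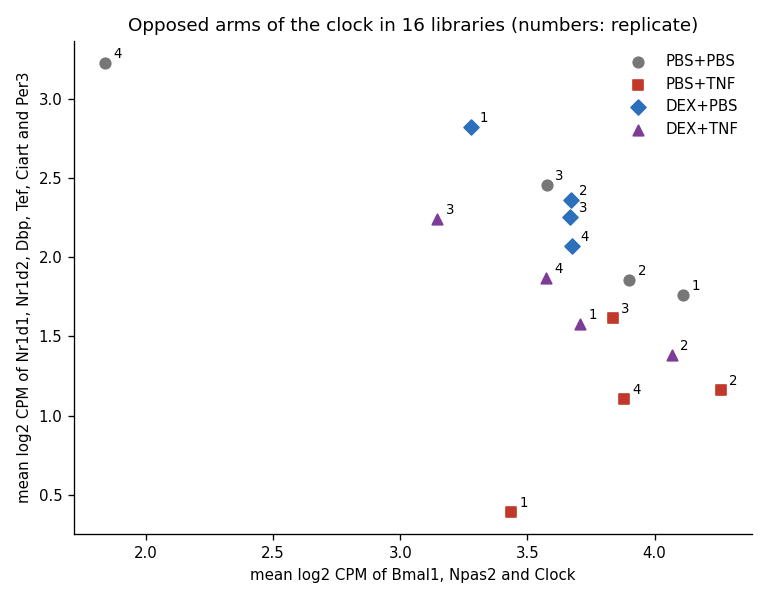
Mean log2 CPM of Nr1d1, Nr1d2, Dbp, Tef, Ciart and Per3 (vertical axis) against that of Bmal1, Npas2 and Clock (horizontal axis), a point per library with its replicate number; symbols are groups. PBS+PBS 4 lies alone at the upper left, and PBS+TNF 1, 2 and 4 lie lowest, with DEX+TNF 1 and 2 just under PBS+TNF 3.

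Within groups, members of a single loop might vary together from library to library. Over the 45 pairs of the 10 genes, deviations from the group means of log2 CPM were correlated over 16 libraries, and no pair passed after adjustment (100000 permutations within groups, two-sided), with 6 pairs at an unadjusted p under 0.05. The strongest was Per1 with Nr1d2 (Pearson r = -0.76, permutation p = 0.00282, adjusted p = 0.127; Spearman rho = -0.75, permutation p = 0.00472, adjusted p = 0.194). It was -0.73 without PBS+PBS 1 and 4, the libraries farthest from the median of Per1.

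Genes outside the 10 whose log2 CPM followed a clock gene most closely over the 16 libraries were picked among tested genes whose mean level was 5 CPM or more. For Noct they were Fam107b (r = 0.95), Papss1 (r = 0.93) and Edem2 (r = 0.92). For Nr1d1 they were Bsn (r = 0.92), Vsig2 (r = 0.90) and Ncoa4 (r = 0.89). For Per1 they were Cdx1 (r = 0.94), Rgp1 (r = 0.91) and Aggf1 (r = 0.90), and for Dbp they were Hes6 (r = 0.96), Acaa2 (r = 0.94) and Tmem41b (r = 0.94). These are the highest of many correlations over libraries that share treatments, depth and scaling, and are given as a description.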

How the data were processed

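RNA-seq counts of 16 libraries of sorted mouse Paneth cells were used, grouped by the sample labels. The deposited values are raw read counts per Ensembl gene; per the labels, the libraries were made with a stranded mRNA kit. The submitters' processing notes name FastQC 0.12, STAR 2.7.10a and DESeq2, and the methods of the study name the GRCm39 genome with a GENCODE annotation. The counting program, its strand setting and its handling of reads that match several genes are not given in the sources used here. No column was left unmapped. Gene names, coordinates and promoters came from a later GENCODE annotation of the same GRCm39 genome, which held 54749 of the 55414 identifiers.

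Genes were filtered with filterByExpr, libraries were scaled by TMM, and group means were fitted to the 16 libraries together and compared by the robust quasi-likelihood test of edgeR 4.0.16 (R 4.3.3). P-values were Benjamini-Hochberg adjusted over 11809 genes within each comparison. The SE is the size of the log2 fold change divided by the square root of F. Log2 CPM used a prior count of 2. Fits were tested on simulated data. The alternatives were other scalings and filters, DESeq2 1.42.0, only the compared groups, a replicate block and left-out libraries. The 10 genes and all lists were chosen with earlier results of these data known, and 1 gene of the list of other clock genes is not reported here. Named genes were those 10, the other clock genes that passed in any comparison with Bmal1, Npas2, Tef, Nfil3, Bhlhe40 and Ciart, the treatment checks, and the 3 genes most correlated with each of Per1, Nr1d1, Dbp and Noct.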

Additional observations from a re-analysis of the deposited data

Results flagged for a closer look

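In 4 of 40 sets of 4 libraries (10 genes in 4 groups), the highest or lowest library lay apart from the other 3 by more than Dixon's 95% limit, a rate of about 5% being given by chance. In DEX+PBS, Per2 was lowest in library 1, at 2.31 CPM against 4.47 to 4.82 CPM in the others. In the same library Cry1 was highest, at 12.7 CPM against 8.92 to 9.16 CPM. Dbp in PBS+PBS was highest in library 4, at 2.76 CPM from 22 counts, against 0.427 to 0.685 CPM from 8 counts each in the others. Dbp in PBS+TNF was highest in library 4, at 0.0990 CPM, which is 2 counts against 0 in each of the others.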

How the results depend on the processing

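The log2 fold changes of 32 gene results were recomputed under up to 26 settings, and 2 changed sign: Nr1d2 in PBS+TNF versus PBS+PBS, which was 0.000135 without PBS+PBS 4 and between -0.55 and 0.000135 over all settings, and Cry2 in DEX+TNF versus PBS+TNF, which was -0.022 without DEX+TNF libraries 3 and 4. In PBS+TNF versus PBS+PBS, leaving out a library gave 1 to 4 of the 10 genes, the lowest without PBS+TNF 2, when Noct alone passed. In DEX+TNF versus DEX+PBS the 1 call (Noct) became 0 under upper-quartile factors, without the filter on low counts, with a filter at a mean of 5 CPM, with only the 2 groups compared, with the replicate block and without DEX+TNF libraries 1 and 2, was 0 to 1 when a library was left out, and became 2 without DEX+TNF libraries 3 and 4. DEX+TNF libraries 1 and 2 were the pair with high TNF target levels (Nfkbia at 330 and 382 CPM). Leaving them out kept only the DEX+TNF libraries with low TNF target levels. Then 3 genes passed in DEX+TNF versus PBS+TNF (Cry1, Cry2 and Dbp) and 1 in the interaction (Cry1, -1.79). In the DEX average 2 passed (Cry1 and Cry2) and in the TNF average 2 (Noct and Nr1d1). The cause was not tested. Dbp had no value under the filter at a mean of 5 CPM. Whether replicate numbers pair the libraries is not known. Of 24 same-numbered pairs, 12 had a correlation above 0.1 (range -0.37 to 0.50), and 7 of 16 libraries correlated best with their own number. No chance level was worked out for these counts. With the number as a block, 4 genes passed for PBS+TNF versus PBS+PBS and 4 for the TNF average, as without it. All 40 group means moved by less than 1 SD with plain CPM, but single libraries moved enough to make groups overlap. Between PBS+PBS and PBS+TNF this was so for Noct, Cry1 and Cry2 (Cry2 at 1.01 in PBS+PBS 4 and 1.64 in PBS+TNF 4). Outside the 10 genes it was so for Nfil3 and Fbxw11. Between DEX+PBS and DEX+TNF it was so for Noct (11.4 in DEX+PBS 3, 15.6 in DEX+TNF 4) and Nr1d1 (15.4 and 19.1 in the same libraries). Over all genes the 40 calls of DEX+TNF versus DEX+PBS were 0 with the block and 243 with DESeq2, the 40 of DEX+TNF versus PBS+TNF 16 and 243, the 22 of the DEX average 9 and 92, and the 1 of DEX+PBS versus PBS+PBS 6 with DESeq2. Counts limit Dbp and Cry2 most.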
